A study of Olea europaea var. sylvestris with 6 samples.

Results

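In untreated stems of wild olive, 223 of the 50668 genes in the count table were read in every library of both genotypes and were at least 4-fold higher in AC18 than in AC15. They were chosen by their levels in these same libraries. A gene entered the set if its mean over the AC18 libraries was at least 20 CPM (counts scaled to a library total of 1000000) and at least 4 times its mean over the AC15 libraries. It also needed at least 1 count in each AC15 library, and the 200 rows with the highest mean CPM over all libraries were left out. Because the choice used the AC18 against AC15 contrast, the sizes of the differences below are descriptions, and no test of them is offered as support. What the choice did not use is the spread between replicates, the position of the genes in the identifier series and the behaviour of the genes outside the set.

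The samples were stems of Olea europaea var. sylvestris, with 3 biological replicates of AC18, the variety the submitters class as tolerant to Verticillium wilt, and 3 of AC15, the variety they class as susceptible. All plants were untreated, had been raised from rooted leafy cuttings to an age of 6 to 10 months and a height of 40 to 52 cm, with 2 months of acclimation in a greenhouse. Each class is 1 variety, so a difference between genotypes cannot be told apart from a difference between these varieties for reasons other than tolerance. Poly(A) RNA was read, and the deposited table holds estimated counts with totals from 7892188 to 8589143 in AC18 and from 7468058 to 8489459 in AC15.

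Verticillium wilt is a vascular disease. The soil-borne fungus Verticillium dahliae enters through the roots and spreads in the xylem, the water-conducting tissue of the stem, and the plant responds with barriers in the vessels and with antimicrobial compounds and proteins. Levels measured in uninfected stems describe the state of the tissue before such a response. A bulk stem sample mixes bark, phloem, cambium, xylem and pith, so a higher count cannot be told apart between more RNA per cell and more cells of the type that makes it.

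The identifiers of the table are not paired with gene names in the sources used here. A search of RefSeq's wild olive genes matched 0 of them, so the functions, sequences and positions of the 223 genes are not given, and no check of the stem label against tissue markers was possible. The set is therefore described by its values, and 2 genes are given by identifier: the one with the highest level in AC18 and the one with the largest ratio. Other members are referred to by their place in the order of levels. CPM values are not divided by transcript length, so an order of genes by CPM is an order by reads and not by RNA molecules.

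Of the rows, 9841 reached a mean of 20 CPM in AC18, and 238 of these were at least 4-fold higher than in AC15. The rule then left out 11 genes that lacked a count in at least 1 AC15 library and 4 genes among the most abundant rows, which gives the 223. The 11 genes had means of 22.2 to 70.5 CPM in AC18 and were next to absent in AC15, where none exceeded 6 counts in a library, and each had at least 1 count in some AC15 library. The 4 abundant genes had 923 to 2426 CPM in AC18 and 183 to 489 CPM in AC15. Their ratios, 4.37 to 5.80, lay in the lower part of the range of the set. In the opposite direction the same rule gives 133 genes higher in AC15, so the set makes up 2.27% of the genes at or above its floor in AC18, and the 133 genes, called the mirror set below, 1.38% of those at or above the floor in AC15.

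The limits of the set fall in a continuous distribution. The ratios just inside were 4.02, 4.05 and 4.06, and those just outside were 3.98, 3.97 and 3.97. A ratio under 5 was found for 55 members, and 135 genes that met the other criteria had a ratio of 3 to 4. At the floor, members with 20.13 and 20.13 CPM in AC18 stood beside genes left out with 19.99 and 19.90 CPM.

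Together the 223 genes took 1.90%, 1.93% and 1.96% of all counts in AC18 replicates 1, 2 and 3, against 0.272%, 0.270% and 0.267% in AC15 replicates 1, 2 and 3. The mean share was 1.93% ± 0.028 in the AC18 libraries and 0.270% ± 0.0021 in the AC15 libraries (SD, n = 3 for both), a ratio of 7.15. The lowest AC18 library held 6.99 times the summed CPM of the highest AC15 library. Both genotypes were thus uniform in this sum, and AC15 replicate 2, which differs most from the other AC15 libraries over all genes (chi-square per gene of 4.83 and 4.47 against its replicates, where those gave 1.79 between them), lay between them here. The 133 genes of the opposite direction took 0.144% ± 0.0014 in the AC18 libraries and 0.978% ± 0.037 in the AC15 libraries (SD, n = 3 for both).

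The reads of the set were spread over many genes. In AC18 the 10 highest members held 23.2% of the summed CPM, the highest member 3.53%, and the 36 highest members more than 50% of it. The median member had 49.9 CPM in AC18 and 6.02 CPM in AC15. For comparison, the 9618 genes that reached the floor in AC18 and are not members had a median of 45.5 CPM in AC18 and 44.7 CPM in AC15. Among the genes above the floor, the members were thus ordinary in their AC18 level and low in their AC15 level, which is how the rule picks them.

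**Figure D1:**
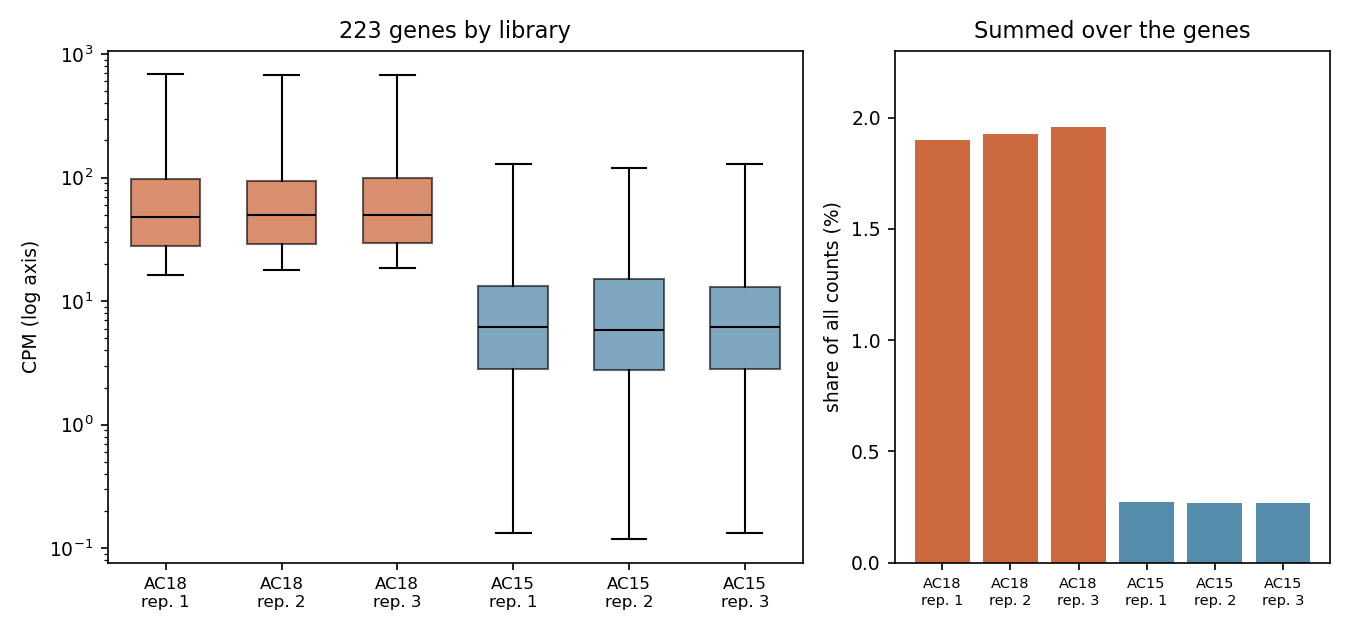
Left, CPM of the 223 genes in each library on a log axis (box, quartiles with the median; whiskers, lowest and highest gene); right, their summed share of all counts in percent, with AC18 in orange and AC15 in blue. The AC18 shares lie between 1.90% and 1.96% and the AC15 shares between 0.267% and 0.272%.

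In order of reads, the members ranked from 104 to 9793 among all rows by mean CPM in AC18, with a median rank of 4487. In AC15 the same genes ranked from 1408 to 27733, with a median rank of 16808. There were 15 members among the 500 genes with most reads in AC18 and 28 among the first 1000, but 0 members among the first 1000 in AC15. Beyond rank 20000 in AC15 lay 59 members. Per library the members had 130 to 5781 counts in AC18 and 1 to 1011 counts in AC15, so the AC18 values are the better counted ones throughout.

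The ratio of the means ran from 4.02 to 378, with a median of 7.26 and quartiles of 5.03 and 14.6. It was at least 8 for 99 members, at least 16 for 51, at least 32 for 28 and at least 100 for 6. The 133 genes of the opposite direction had a median ratio, AC15 over AC18, of 5.66 with quartiles of 4.65 and 7.84. The libraries of the genotypes did not overlap for any member, where the lowest AC18 library lay above the highest AC15 library for 34.1% of all 24018 tested genes. For 180 members the lowest AC18 library was at least 4 times the highest AC15 library. This count leans on the 4-fold ratio of means in the rule, and the matching share over all tested genes was not computed. The member with the narrowest gap had 18.6, 20.4 and 23.4 CPM in the AC18 libraries and 2.81, 3.53 and 6.81 CPM in the AC15 libraries, a gap of 2.73-fold. Within AC15 its highest library was more than double its lowest.

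In the edgeR fit across all genes, with a call at a Benjamini-Hochberg adjusted p below 0.05, 223 of the 223 members were called higher in AC18, where 29.5% of all tested genes were. All members passed the filter on low counts, as the floor of 20 CPM in AC18 ensures, and the rule used this contrast, so the count carries no information of its own. The median fitted log2 fold change was 2.81, against -0.01 over all tested genes. The fit uses normalized totals instead of column totals, and on that scale 215 members were called with at least 4-fold, as were 4.28% of all tested genes, while 8 members fell just short, the lowest at a log2 fold change of 1.96. The 95% interval of the fold change lay wholly above 4-fold for 173 members, as it did for 2.96% of the tested genes. These intervals can be too narrow for members with few AC15 counts. Standard errors on the log2 scale had a median of 0.13 for the members and 0.14 for all tested genes.

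**Figure D2:**
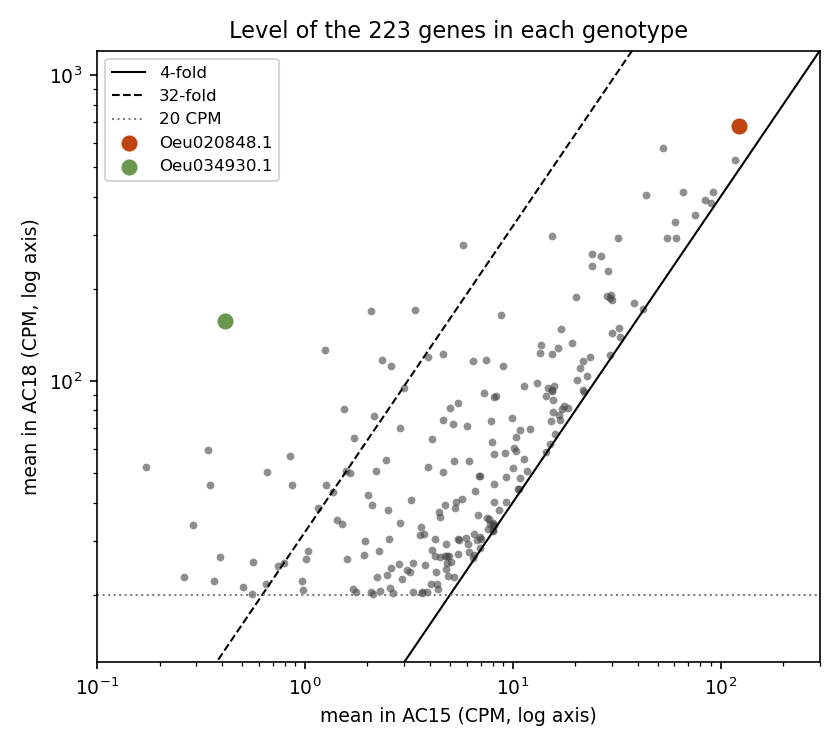
Mean CPM of each of the 223 genes in AC18 (vertical) against AC15 (horizontal), both on log axes, with lines at 4-fold, 32-fold and the floor of 20 CPM. The points are dense along the 4-fold line and thin out towards the upper left, where 28 genes reach 32-fold; Oeu020848.1 and Oeu034930.1 are marked.

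The member with the most reads in AC18, Oeu020848.1, was read 5450, 5366 and 5781 times in AC18 replicates 1 to 3 and 909, 1011 and 960 times in AC15 replicates 1 to 3. This is 681 ± 7.9 CPM in AC18 and 123 ± 4.7 CPM in AC15 (n = 3 each, SD). Both genotypes are tight, and the gene is well read in each. It ranked at place 104 in AC18 and 1408 in AC15, and it had the highest AC15 level of the set too. Its ratio of 5.53 is below the median of the set, and its fitted log2 fold change was 2.42 ± 0.065 (SE; edgeR adjusted p = 2.6e-23, for a gene chosen on this contrast).

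The member with the largest ratio, Oeu034930.1, was read 1164, 1164 and 1500 times in AC18 replicates 1 to 3 and 1, 6 and 3 times in AC15 replicates 1 to 3. Its level was 156 ± 15.8 CPM in AC18 and 0.414 ± 0.287 CPM in AC15 (n = 3 each, SD). The AC18 level places it at rank 1077 in AC18, against 25904 in AC15. The ratio of the means was 378, and the ratio of the summed counts, scaled to the totals, was 368 with a 95% exact (Clopper-Pearson) interval of 200 to 768, which covers counting error only. The fitted log2 fold change was 8.42 (edgeR adjusted p = 6.2e-26, for a gene chosen on this contrast). Its SE from the fit, 0.17, is too small for so few AC15 counts. The log2 fold change was 8.03 without AC15 replicate 1 and 9.06 without AC15 replicate 2. Both lie outside the 95% interval from the fit, 8.07 to 8.77. Only 10 counts stand behind the AC15 value.

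Oeu034930.1 was 1 of 19 members with less than 1 CPM in AC15. These had 20.1 to 156 CPM in AC18 and ratios of 21.0 to 378 with a median of 60.9. Their AC15 values rest on few counts, and for 15 members no AC15 library had 10 counts. The second largest ratio of the set, 301, came from 424, 414 and 431 counts in AC18 and 1, 1 and 2 counts in AC15. At that depth the AC15 level is barely resolved, and reads of a similar transcript could be assigned to such a gene in small numbers, since the counting divides reads between like sequences. Whether the counts in AC15 come from the gene itself was not tested.

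The 79 members with 1 to 5 CPM in AC15 had 20.1 to 170 CPM in AC18 and a median ratio of 10.8. The 90 members with 5 to 20 CPM in AC15 had 22.8 to 297 CPM in AC18 and a median ratio of 5.58. The 35 members with 20 CPM or more in AC15 had 91.7 to 681 CPM in AC18, a median ratio of 5.21 and no ratio above 10.9. That ratios are larger where AC15 is lower follows in part from the shared AC15 value in both quantities and from the floor in AC18. By reads the last class weighed most. It held 15.7% of the members and 46.2% of their summed CPM in AC18, while the 19 members under 1 CPM in AC15 held 8.52% of the members and 3.91% of the sum.

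The 10 members with the most reads in AC18 all had more than 330 CPM there and 43.6 to 123 CPM in AC15. The second by level had 4489, 4575 and 4997 counts in AC18 and 381, 440 and 422 counts in AC15, a ratio of 10.9. The third had 4049, 4166 and 4654 counts in AC18 and 966, 893 and 877 counts in AC15, a ratio of 4.50. These well-counted genes show the difference with a coefficient of variation (CV, the SD as a percentage of the mean) of 1.36% and 2.86% within AC18 and of 5.44% and 10.3% within AC15. The sixth by level combined 3222, 3231 and 3459 counts in AC18 with 322, 404 and 301 counts in AC15, a ratio of 9.31. The eleventh stood out among them with 2405, 2330 and 2506 counts in AC18 and 109, 137 and 118 counts in AC15, a ratio of 19.2. Each of these genes was picked for description after its values had been seen.

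The spread between replicates, which the rule did not use directly, was close to that of other genes in the same range of level. The 200 most abundant rows were left out of this comparison. The highest class of each genotype has no upper limit, so levels are matched only loosely there. In AC18 the median CV of members with 20 to 50 CPM was 7.24% (112 members), against 6.46% for the 5251 other tested genes in that range. It was 5.56% against 4.68% at 50 to 100 CPM and 3.81% against 3.68% at 100 to 200 CPM. At 200 CPM or more the 19 members had a median CV of 2.04%, against 3.50% for 541 other genes, a lower value that was not tested. The replicates differed by more than counting error: the chi-square per member was 1.91 between AC18 replicates 1 and 2, 4.27 between 1 and 3, and 1.91 between 2 and 3, where counting alone gives about 1. Over all genes with at least 20 counts in the pair it was lower, at 1.63, 2.50 and 1.53, without matching for level.

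In AC15 the members with less than 1 CPM had a median CV of 47.4%, against 45.7% for other tested genes read in every AC15 library. At 1 to 5 CPM it was 18.6% for the members against 22.1% for other genes, at 5 to 20 CPM 13.7% against 12.3%, and at 20 CPM or more 7.52% against 6.92%. In this last class counting error alone would give a median CV of about 6.53% for the members and 5.36% for the other genes. Between the AC15 libraries the chi-square per member was 1.30 to 1.87, over the 198 to 200 members with at least 20 counts in a pair of libraries. Over all genes with that many counts it was 1.79 to 4.83, again without matching for level. The interquartile ranges of members and other genes overlapped in every class of both genotypes.

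**Figure D3:**
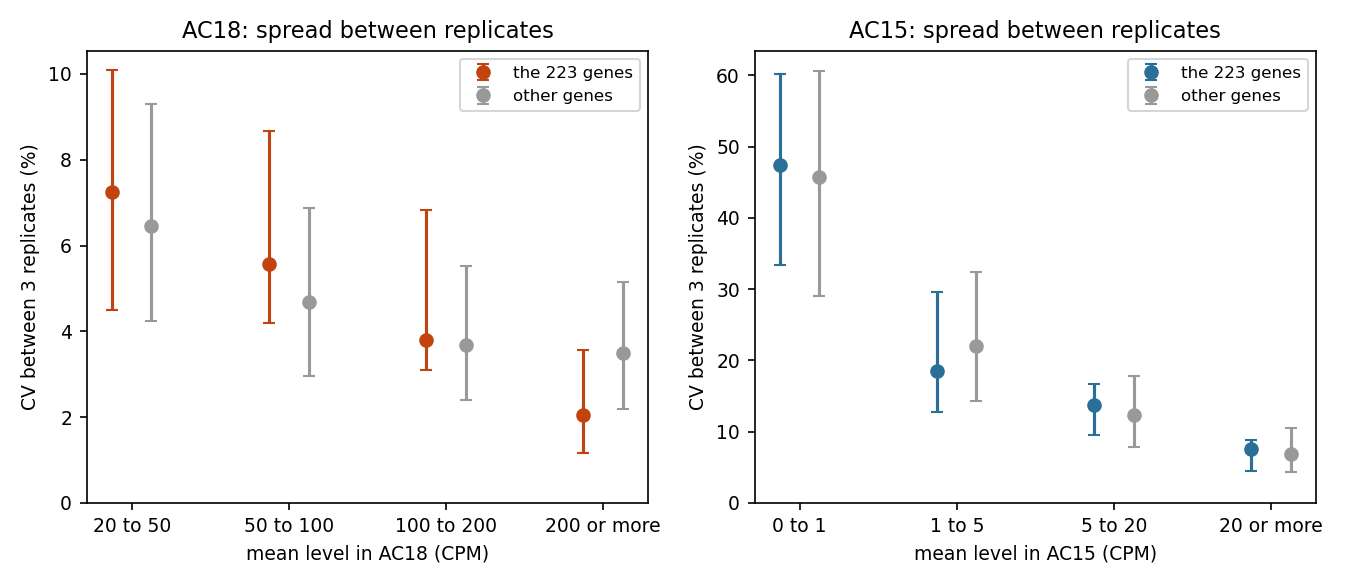
Coefficient of variation between the 3 replicates of AC18 (left) and of AC15 (right), in percent, by level in that genotype, for the 223 genes (coloured) and other tested genes (grey); points are medians and bars the interquartile range over genes. Both fall with level together, from 7.24% and 6.46% to 2.04% and 3.50% in AC18.

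The libraries of a genotype did not share the extremes evenly. Within AC18, replicate 3 held the highest of the 3 values for 48.0% of the members and for 39.8% of the 9618 other genes above the floor, and replicate 1 the lowest value for 49.8% of the members and 41.6% of the other genes. Within AC15 the highest value fell to replicates 1, 2 and 3 for 33.6%, 36.3% and 30.0% of the members, against 33.2%, 42.7% and 24.1% of the other genes. When the rule was applied without 1 library at a time, it gave 216 to 229 genes, and 211 to 221 of the 223 members were among them.

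The place of the members in the identifier series was independent of the rule. Identifiers run to number 64910, and whether their order follows the chromosomes is not given in the sources used here. Another member within 3 identifier numbers was found for 15 of 223 members (6.73%). Of the 9618 genes above the floor that are not members, 209 (2.17%) had a member within that distance. Within 1 number the shares were 4.93% of members and 0.676% of those genes. These shares describe the table and were not tested, since neighbouring genes are not independent. In the mirror set, 4 of 133 genes (3.01%) had another of their kind within 3 numbers, and 2 of the 223 members had a gene of the mirror set within that distance. The mirror set is smaller and its own background share was not computed, so its share cannot be set directly against that of the members.

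The 15 members with a close neighbour formed 5 pairs and 1 run of 5 genes. Without the run, 10 of 218 members (4.59%) had another member within 3 numbers, so 5 of the 15 come from the run. Of the 9618 other genes above the floor, 208 (2.16%) had a member outside the run within that distance. In 3 of the 5 pairs the ratios of both genes lay within 1.52-fold of each other: 7.91 beside 5.21, 9.13 beside 7.89, and 11.0 beside 8.69. In the other two they differed, with 81.4 beside 6.08 and 87.3 beside 4.37. The pairs with 11.0 beside 8.69 and with 87.3 beside 4.37 were 3 identifier numbers apart, and the others 1 number apart. Members close by number were thus not always higher by a like factor.

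The run is the densest group of the set: 5 rows of the table lie in a stretch of 6 identifier numbers, and all 5 are members. Its first gene had 78.5, 71.8 and 75.7 CPM in the AC18 libraries and 9.11, 9.31 and 11.5 CPM in the AC15 libraries, a ratio of 7.56. Its second gene had 110, 120 and 122 CPM in AC18 and 2.41, 2.24 and 2.40 CPM in AC15, a ratio of 49.9. The third gene had 111, 124 and 132 CPM in AC18 and 5.09, 5.89 and 2.94 CPM in AC15, a ratio of 26.4. The genotypes lie far apart in each of these genes. The fourth gene had 72.2, 73.4 and 84.1 CPM in AC18 and 3.35, 2.00 and 1.07 CPM in AC15, a ratio of 35.8. The fifth had the most reads, 264, 279 and 289 CPM in AC18 and 7.36, 5.54 and 4.41 CPM in AC15, a ratio of 48.1.

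Summed over the run, the level was 669 ± 33.8 CPM in AC18 and 24.9 ± 2.5 CPM in AC15 (n = 3 each, SD). Around the run the direction was mixed. The row just before had 10.5 CPM in AC18 and 12.1 CPM in AC15 (log2 fold change -0.26 ± 0.15 SE, edgeR adjusted p = 0.13), and the row just after had 14.2 CPM in AC18 and 12.6 CPM in AC15 (log2 fold change 0.14 ± 0.13 SE, edgeR adjusted p = 0.4), and neither was called. A little farther out, a gene 2 identifier numbers before the run had 12.4 CPM in AC18 and 19.0 CPM in AC15 and was called lower in AC18 (log2 fold change -0.66 ± 0.13 SE, edgeR adjusted p = 4.9e-05). A gene 2 numbers past its end had 26.2 CPM in AC18 and 46.1 CPM in AC15 and was also called lower in AC18 (log2 fold change -0.86 ± 0.092 SE, edgeR adjusted p = 2.5e-09). A gene 5 identifier numbers past the end of the run, which stood under the floor with 5.10 CPM in AC18 and 0.268 CPM in AC15, was called higher in AC18 (log2 fold change 4.18 ± 0.52 SE, edgeR adjusted p = 1.3e-07). Its SE rests on 4, 0 and 2 counts in AC15 replicates 1 to 3 and may be too small. If some of these genes are near-identical copies, the counting would have divided reads among them, so the values of single genes in the run are less certain than their sum. The run was singled out after its values had been seen.

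**Figure D4:**
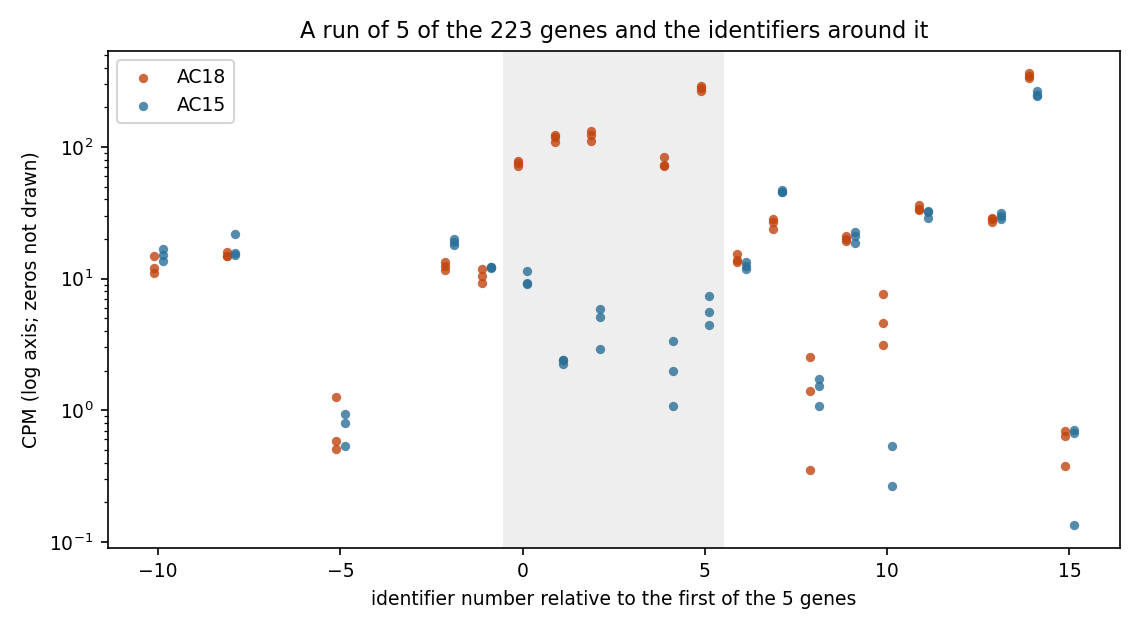
CPM in each library (log axis, zeros not drawn) of the 5 consecutive members (grey band) and of the rows around them, by identifier number relative to the first of the 5; AC18 in orange, AC15 in blue, 3 points each. Inside the band the AC18 points lie at 71.8 to 289 CPM and the AC15 points at 1.07 to 11.5 CPM, and the rows directly beside it have similar levels in both genotypes.

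Genes outside the set but next to a member were also looked at. Of 182 tested genes within 1 identifier number of a member, 46 (25.3%) were called at least 2-fold higher in AC18 and 8.79% at least 2-fold lower (edgeR adjusted p under 0.05). Over all 24018 tested genes these shares were 11.2% and 8.99%, and over the 23795 tested genes outside the set 10.4% and 9.08%. The share of genes lower in AC18 was thus near the background and the share of genes higher in AC18 above it. Farther out, the share called at least 2-fold higher was close to the background, slightly above the 10.4% outside the set. It was 10.7% of the 328 tested genes at 2 to 3 numbers from the nearest member and 11.4% of the 1096 at 4 to 10 numbers. The 46 neighbours had a median of 7.16 CPM in AC18, and 37 of them stood under the floor of the rule, while 9 stood above it. Of the 223 members, 42 had such a neighbour, and the matching share for genes outside the set was not computed.

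The median log2 fold change of the genes outside the set was 0.14 at 1 number from a member and -0.03 at 2 to 3 numbers, against -0.02 over all tested genes outside the set. Next to the genes of the mirror set the larger share lay on the other side, with 18.1% of 116 tested neighbours within 1 number called at least 2-fold lower in AC18 and 10.3% called at least 2-fold higher, and a median log2 fold change of -0.13. At 2 to 3 numbers from a mirror gene 13.8% were lower and 12.4% higher. At 4 to 10 numbers 9.55% were lower and 13.8% higher, so the larger share lay on the side of AC18 there. Leaving out the run of 5 and its own neighbours gave 46 of 180 (25.6%) for the members. These shares were not tested, and reads of near-identical neighbouring genes may have been divided among them by the counting.

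**Figure D5:**
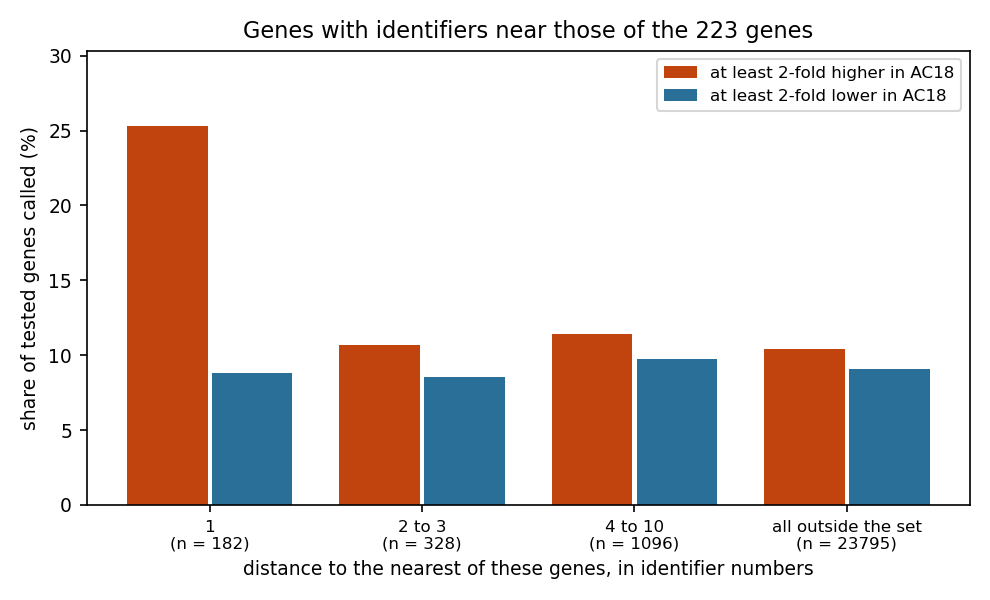
Share of tested genes outside the set, in percent, that were called at least 2-fold higher (orange) or at least 2-fold lower (blue) in AC18, by distance from the nearest member in identifier numbers; the right pair is all tested genes outside the set. The orange bar is 25.3% at a distance of 1 and 10.7% and 11.4% at the next distances, beside 10.4% for all of them, and the blue bars stay between 8.54% and 9.76%.

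The suffix after the identifier was 1 for 88.8% of the members and for 80.9% of the other genes above the floor, and 2 for 7.17% of the members and 13.7% of the other genes. What the suffix stands for is not given in the sources used here.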

How the data were processed

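The values are estimated counts as deposited by the authors, whole numbers with 1 column per library. FastQC, Trimmomatic and kallisto 0.46.1 are listed in the submitters' processing notes, while the transcript reference and build are not named in the sources used here. The genes and lists described were chosen with earlier results of these data known. CPM was the count divided by the column total, times 1000000.

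Counts were tested with edgeR 4.0.16 in R 4.3.3 (filterByExpr with minimum count 10 and minimum total 15, TMM, robust quasi-likelihood fit, genotype as the single factor, two-sided), which kept 24018 genes, with Benjamini-Hochberg adjustment over all of them. Fold changes are AC18 over AC15. Standard errors and 95% intervals came from the same fit. The calls and fold changes of the fit were tested on simulated data, and its standard errors and intervals were not. Each SE is the log2 fold change divided by the square root of the F statistic of the test. It can be too small where AC15 counts are few, even beside counting error alone, as for Oeu034930.1. The p-values reflect the spread between these plants, while the exact interval of a count ratio covers counting error only.

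Replicate numbers are not tied between genotypes in the labels, and deviations of same-numbered libraries correlated at -0.03, -0.02 and -0.05, so they were not treated as pairs. No libraries agreed within sampling noise. Identifiers were named by a fixed rule: the member with the highest AC18 CPM and that with the largest ratio. Gene lists by product name could not be run, since no names could be joined.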

Additional observations from a re-analysis of the deposited data

How the results depend on the processing

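The size of the set depended on its limits by construction: it held 358 genes at a ratio of at least 3, 136 at 6, 369 at a floor of 10 CPM and 130 at 40 CPM, against 223. It held 213 and 214 genes when CPM was scaled by TMM or by the size factors of DESeq2, 192 with at least 10 counts in each AC15 library, 234 with no such minimum, 227 with the 200 most abundant rows, and 216 to 229 when single libraries were left out. All 223 members stayed called higher in AC18 under each of the 13 alternative fits, including DESeq2 and limma voom, which the selection made all but certain. The median log2 fold change of the members was 2.79 to 2.83 when single libraries were left out and 2.86 with library totals alone, which shift the median of all tested genes to 0.04. The 14302 called genes (59.5% of those tested) became 12461 of 30609 with DESeq2, 15887 of 33891 without the filter, 14191 with a replicate block and 12893 to 14332 when single libraries were left out. For Oeu034930.1 the log2 fold change was 9.06 without AC15 replicate 2, which holds 6 of its 10 AC15 counts, and 8.03 without AC15 replicate 1. The share of members with another member nearby was 4.93% at 1 identifier number, 11.7% within 10 and 4.59% without the run of 5 (an alternative chosen after seeing the data), and the median log2 fold change of the neighbours was 0.03 within 3 numbers and 0.14 within 1. Depth limits the AC15 levels of the 15 members with fewer than 10 counts in every AC15 library.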
